A study of Mus musculus with 4 samples.

Results

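The genes described here are 30 genes of cholesterol synthesis, uptake, storage and export, chosen by name from a table of 18560 genes. All 30 had a row in the table and all 30 passed the filter on low counts. The table holds 4 RNA-seq libraries of activated spleen CD4+ T cells of C57BL/6 mice. In both groups naive CD4+ T cells had been stimulated through CD3 and CD28 to give Th0 cells, which are activated helper T cells not steered toward an effector type. The wild type group has 2 libraries, replicates 1 and 6. The other group has 2 libraries, replicates 9 and 12, with the genotype given as Setd2-CD4 cre, called knockout below, and Setd2 encodes the methyltransferase that trimethylates lysine 36 of histone H3. Cre under Cd4 control is active from the stage of thymocytes that carry both CD4 and CD8, so the gene is targeted before the mature T cell forms. The labels give the stimulation time as 3 days and the series text as 2 days, and the sample titles end in 48. No label gives the age or sex of the mice or says that the replicates are separate animals, so p-values below reflect no more than the scatter among these 4 samples, which could be technical.

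Cells make cholesterol from acetyl-CoA. The mevalonate steps build farnesyl diphosphate, pairs of which are joined to squalene, squalene is closed to lanosterol, and a last series of steps trims lanosterol to cholesterol. The pathway is set by SREBP2, a transcription factor held in the endoplasmic reticulum with its escort SCAP by the INSIG proteins when sterols are plentiful, and released to the nucleus when they are scarce. The opposite arm is set by the liver X receptors (LXR), which bind oxysterols and switch on the export pumps ABCA1 and ABCG1. Activated T cells are known to raise sterol synthesis and to lower LXR activity as they prepare to divide.

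Promoter sequences of the members are shown first, as background. Their link to the levels in the 4 libraries was not tested. RefSeq promoter windows (GRCm38.p6, 250 bases before to 50 after each start site) were found for 24 of the 30 members, 30 windows in all, out of 32851 windows of 27025 genes. The 5 members printed first are those with a motif match that stood furthest below wild type replicate 1 in wild type replicate 6. They were picked by both traits, so finding both in them is no result. Fdps and Sqle had no window, and the window of Acat2, 2.97-fold lower in wild type replicate 6, held no match. Abca1 is printed for contrast. Each sequence is the 250 bases before the start site, 5′ to 3′ on the gene's strand. Capitals mark the CCAAT box (CCAAT, or ATTGG on the other strand), the core of the sterol regulatory element that SREBP binds (TCACNCCAC) and, in Abca1, the LXR element.
Cyp51, chr5:4104698-4104947, minus strand: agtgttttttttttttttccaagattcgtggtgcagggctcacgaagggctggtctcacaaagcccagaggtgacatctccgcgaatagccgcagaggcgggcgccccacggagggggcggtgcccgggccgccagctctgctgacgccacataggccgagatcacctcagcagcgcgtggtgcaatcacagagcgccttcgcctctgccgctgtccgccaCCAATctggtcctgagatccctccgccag
Insig1, chr5:28071162-28071411, plus strand: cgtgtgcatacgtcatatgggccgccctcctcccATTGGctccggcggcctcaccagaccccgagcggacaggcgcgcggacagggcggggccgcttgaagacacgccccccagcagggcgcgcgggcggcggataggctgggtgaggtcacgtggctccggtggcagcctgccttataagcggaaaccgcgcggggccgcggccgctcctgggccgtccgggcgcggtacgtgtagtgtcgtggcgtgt
Idi1, chr13:8885356-8885605, plus strand: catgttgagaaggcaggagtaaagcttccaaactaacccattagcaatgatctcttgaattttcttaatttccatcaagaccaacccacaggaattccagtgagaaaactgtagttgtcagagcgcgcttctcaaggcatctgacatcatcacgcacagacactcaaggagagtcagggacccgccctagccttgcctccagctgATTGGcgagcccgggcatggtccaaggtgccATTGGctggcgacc
Lss, chr10:76531355-76531604, plus strand: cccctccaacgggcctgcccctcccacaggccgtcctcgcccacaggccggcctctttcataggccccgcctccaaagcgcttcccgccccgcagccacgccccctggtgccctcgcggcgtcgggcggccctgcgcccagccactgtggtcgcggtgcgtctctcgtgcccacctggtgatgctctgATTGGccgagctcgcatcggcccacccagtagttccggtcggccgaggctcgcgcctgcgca
Hmgcs1, chr13:119690101-119690350, plus strand: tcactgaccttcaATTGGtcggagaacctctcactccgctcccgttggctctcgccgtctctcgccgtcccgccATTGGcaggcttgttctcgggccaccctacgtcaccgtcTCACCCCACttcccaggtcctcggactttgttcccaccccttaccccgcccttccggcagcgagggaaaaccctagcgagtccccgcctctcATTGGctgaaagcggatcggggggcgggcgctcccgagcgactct
Abca1, chr4:53159896-53160145, minus strand: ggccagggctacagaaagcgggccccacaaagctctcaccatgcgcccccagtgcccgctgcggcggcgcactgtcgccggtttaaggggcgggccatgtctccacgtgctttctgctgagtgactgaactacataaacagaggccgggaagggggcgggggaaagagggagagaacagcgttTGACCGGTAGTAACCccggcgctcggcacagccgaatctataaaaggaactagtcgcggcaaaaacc

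The CCAAT box, bound by NF-Y, which is known to work with SREBP at sterol genes, was common in these windows. It was present on either strand in 20 of 24 members with a window (83.3%) and in 15 of 16 synthesis enzymes (93.8%), against 41.1% of all genes in the promoter table and 43.4% of those tested for expression. Because some genes have more windows than others, the share of windows is also given. It was 66.7% for the members and 37.4% for all promoters. In Hmgcs1 the CCAAT boxes lay 237, 176 and 45 bases before the start site, with 1 more in the 50 bases after it that are not printed, and the sterol element core TCACCCCAC lay 137 bases before it. Hmgcs1 was the 1 member of 24 that held the core, which occurs in 1.44% of all genes with a window. The stricter form, TCACCCCAC with an A before it, which contains the core, was found in 0 of the 24 members and in 27 of all 27025 genes (0.0999%). Among members with a window and not lower in wild type replicate 6 than in replicate 1, Ggps1, Insig2 and Npc2 held the CCAAT box. Scap, Nr1h2 and Abca1, also not lower there, did not. These counts say only which letters stand in these windows. The LXR element searched, TGACCG and TAACC with 4 bases between them and read on either strand, takes its letters from the element known from the ABCA1 promoter, so its match in Abca1, 67 bases before the start site, is a check of the window and not a finding. It was found in 4 of all 27025 genes.

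Library totals lay between 17284613 and 20418766 expected counts, and 12816 genes were tested. Gene positions are those of RefSeq on GRCm38.p6. Levels below are CPM, the counts scaled by TMM to a common library size. A log2 fold change compares the knockout pair with the wild type pair and is given with its standard error (SE). Setd2 was at 157 and 174 CPM in the wild type pair and at 127 and 113 CPM in the knockout pair (log2 fold change -0.47, SE 0.21, edgeR adjusted p 0.421), and a gene-level count does not show whether a part of the gene was removed. Of 7 T cell markers fixed, 6 were in the table, among them Cd3e and Cd4. Their sum was 2272 and 2543 CPM in the wild type pair and 2001 and 1861 CPM in the knockout pair. This sum was thus highest in wild type replicate 6 and lowest in knockout replicate 12, but not every marker followed it. Cd3d, Cd3g and Cd4 were lowest in knockout replicate 9, and only Cd3e and Cd28 in knockout replicate 12. Cd28 was at 501 CPM in knockout replicate 9 and 292 CPM in knockout replicate 12. Lck was lowest in wild type replicate 6 and highest in knockout replicate 12. CD8 markers summed to 260 and 330 CPM in wild type replicates 1 and 6 and to 432 and 323 CPM in knockout replicates 9 and 12. The log2 fold changes fell with gene length over all genes, from a median of 0.38 below 1 kb of effective length to -0.50 above 8 kb.

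No member passed the test between genotypes. edgeR's quasi-likelihood test called 0 of the 30 members at an adjusted p under 0.05, against 1 higher gene (0.0078%) and 0 lower genes (0%) of the 12816 tested. No member reached an unadjusted p under 0.05 (0 of 30), against 6.23% of all genes higher and 5.73% lower. DESeq2 called 0 members, against 0.694% of all genes higher and 0.757% lower, and at an unadjusted p it had 4 members higher and 1 lower, against 6.59% and 6.48%. In limma-voom 0 members were called, against 0.0078% and 0%, and at an unadjusted p 2 were higher and 0 lower, against 6.65% and 6.37%. The smallest adjusted p of a member was 0.417 in edgeR (Abcg1), 0.265 in DESeq2 (Fdps) and 0.380 in limma-voom. The knockout pair lay wholly above the wild type pair for 7 of 30 members (23.3%) against 25.4% of all genes, and wholly below it for 2 members against 24.3%. The first of these shares is near that of all genes.

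The members did share a pattern across libraries. Wild type replicate 6 was the lowest of the 4 libraries for 22 of 30 members, against 33.1% of all genes tested, and for 18 of the 19 synthesis enzymes. The summed level of the 19 enzymes was 1346 CPM in wild type replicate 1, 622 CPM in wild type replicate 6, 1334 CPM in knockout replicate 9 and 1702 CPM in knockout replicate 12. Wild type replicate 1 and knockout replicate 9 thus differed little in this sum, while wild type replicate 6 stood far below both and knockout replicate 12 above them. Over all tested genes, too, wild type replicate 1 and knockout replicate 9 were the closest pair of libraries. Wild type replicate 6 and knockout replicate 12 were the farthest. Such a distance has no direction, and the low level in wild type replicate 6 was not shared by all genes. Its median fold below wild type replicate 1 was 1.01 over all genes with counts in both. Of these genes 3.18% were more than 2-fold lower in wild type replicate 6 and 7.24% more than 2-fold higher, against 47.4% and 0% of the enzymes. Wild type replicate 1 lay between the 2 knockout libraries for 12 of the 19 enzymes and for 19 of the 30 members, against 32% of all genes tested. Fold changes were above 0 for 23 of 30 members (median log2 fold change 0.39), against 49.8% of all genes (median -0.0024). Without wild type replicate 6 the median of the members was 0.06 and 20 were above 0, and without wild type replicate 1 it was 0.87. The summed B cell markers were also lowest in wild type replicate 6 (179 CPM) and highest in knockout replicate 12 (336 CPM), with 262 CPM in wild type replicate 1 and 192 CPM in knockout replicate 9, and the TMM factors were highest (1.056) and lowest (0.949) in those same libraries. Erythroid markers were highest in wild type replicate 6, at 6.21, 19.8, 2.15 and 7.23 CPM in wild type replicates 1 and 6 and knockout replicates 9 and 12, as were dendritic cell markers, at 9.72, 14.2, 9.80 and 10.3 CPM. The part of these in the enzyme levels was not tested. With the length trend removed the median of the 19 enzymes was 0.39, with 18 above 0, against 0.51 without that correction.

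**Figure D1:**
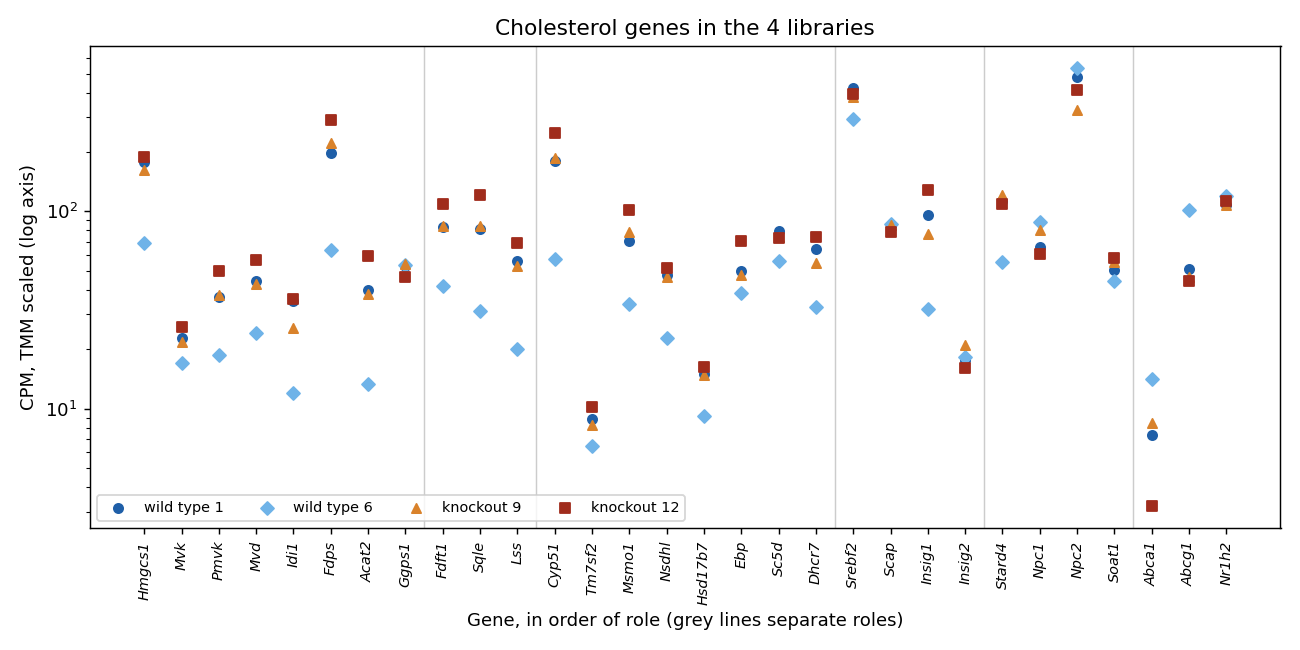
Levels of the 30 cholesterol genes in each of the 4 libraries, as CPM on a log axis, with genes in order of role. The light blue diamonds of wild type replicate 6 lie lowest for 18 of the 19 synthesis enzymes and highest for Abca1 and Abcg1.

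The mevalonate steps from acetyl-CoA to the isoprenoid diphosphates were covered by 8 members, of which 7 had a log2 fold change above 0 (median 0.52). Fdps (Entrez gene 110196, chr3:89093588-89101967), which makes farnesyl diphosphate, stood at 198 CPM in wild type replicate 1 but 63.7 CPM in wild type replicate 6, with knockout replicates 9 and 12 at 221 and 289 CPM. Both knockout libraries were above both wild type libraries, but wild type replicate 6 was 3.11-fold below its own group's other library. The log2 fold change was 0.96 (SE 0.48, edgeR adjusted p 0.437), and 0.36 (SE 0.34) without wild type replicate 6. Acat2, a cytosolic thiolase that forms acetoacetyl-CoA, was at 39.8 and 13.4 CPM in the wild type pair and at 38.0 and 59.1 CPM in the knockout pair. The groups overlapped, with wild type replicate 1 just above knockout replicate 9 (log2 fold change 0.87, SE 0.48). Acat2 overlaps a pseudogene by 634 bases in the annotation, so reads could be split there.

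Hmgcs1 (Entrez gene 208715, chr13:119690351-119708260), the synthase that makes HMG-CoA, was at 179 and 69.0 CPM in the wild type pair and at 162 and 189 CPM in the knockout pair. Its 2 knockout values lay on either side of wild type replicate 1, and its log2 fold change of 0.51 (SE 0.41, edgeR adjusted p 0.586) became -0.026 (SE 0.34) without wild type replicate 6. The phosphomevalonate kinase gene Pmvk was at 37.0 and 18.6 CPM against 37.7 and 49.9 CPM. The groups did not overlap, by a margin of less than 1 CPM between wild type replicate 1 and knockout replicate 9. Mvd, which decarboxylates mevalonate diphosphate, was at 44.3 and 24.1 CPM against 42.9 and 56.6 CPM, and the groups overlapped. The isomerase gene Idi1, singled out after its values were seen, had 35.3 and 11.99 CPM in the wild type pair, a 2.94-fold gap. Its knockout values of 25.6 and 35.8 CPM lay below and just above wild type replicate 1. The mevalonate kinase gene Mvk ranged from 17.04 to 25.9 CPM. Ggps1 was the 1 enzyme of the 19 not lowest in wild type replicate 6. It makes geranylgeranyl diphosphate for protein prenylation, a branch off the route to sterols, and it was at 52.7 and 53.7 CPM against 54.4 and 46.2 CPM.

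The 3 genes from squalene to lanosterol had log2 fold changes between 0.62 and 0.87. Squalene synthase, Fdft1, commits carbon to sterols. It was at 83.7 and 41.9 CPM in the wild type pair and at 84.2 and 109 CPM in the knockout pair, where knockout replicate 9 and wild type replicate 1 were nearly equal. Squalene epoxidase, Sqle (Entrez gene 20775, chr15:59315092-59331193), a rate-limiting step of the pathway, was at 81.6 and 31.3 CPM against 83.9 and 122 CPM (log2 fold change 0.87, SE 0.44, edgeR adjusted p 0.438). The groups did not overlap, and the log2 fold change without wild type replicate 6 was 0.33 (SE 0.36). Lanosterol synthase, Lss, was at 56.3 and 20.1 CPM against 52.6 and 69.5 CPM, with overlap. Fdft1 overlaps the gene Ctsb by 774 bases in the annotation, and the sources used here do not say whether the counts used strand.

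All 8 genes from lanosterol to cholesterol had a log2 fold change above 0 (median 0.41) and were lowest in wild type replicate 6. Cyp51 (Entrez gene 13121, chr5:4080674-4104697), the lanosterol demethylase whose promoter is printed above, was at 180 and 57.6 CPM in the wild type pair and at 186 and 251 CPM in the knockout pair. Its 3.13-fold gap between the wild type libraries was the largest of the 30 members. The log2 fold change was 0.88 (SE 0.49, edgeR adjusted p 0.461), and 0.27 (SE 0.34) without wild type replicate 6. Msmo1 (Entrez gene 66234, chr8:64718123-64733578), the methylsterol oxidase, had the smallest p of the enzymes, with 70.7 and 34.0 CPM against 78.2 and 102 CPM (log2 fold change 0.78, SE 0.35, edgeR p 0.0581, adjusted p 0.419). Nsdhl, the next enzyme in the removal of the methyl groups, was at 47.5 and 22.8 CPM against 46.5 and 51.5 CPM. Ebp, a sterol isomerase, was less low in wild type replicate 6, with 49.7 and 38.3 CPM against 47.4 and 70.6 CPM. Both overlapped between genotypes. The remaining 4 were Dhcr7, Hsd17b7, Tm7sf2 and Sc5d, with log2 fold changes between 0.12 (Sc5d) and 0.40 (Dhcr7). Tm7sf2, a sterol reductase, ranged from 6.47 to 10.2 CPM over the libraries. On the per-length scale of FPKM, which allows levels to be compared between genes, mean levels of the enzymes ran from 2.98 (Hsd17b7) to 153 (Fdps), with a median of 23.3.

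**Figure D2:**
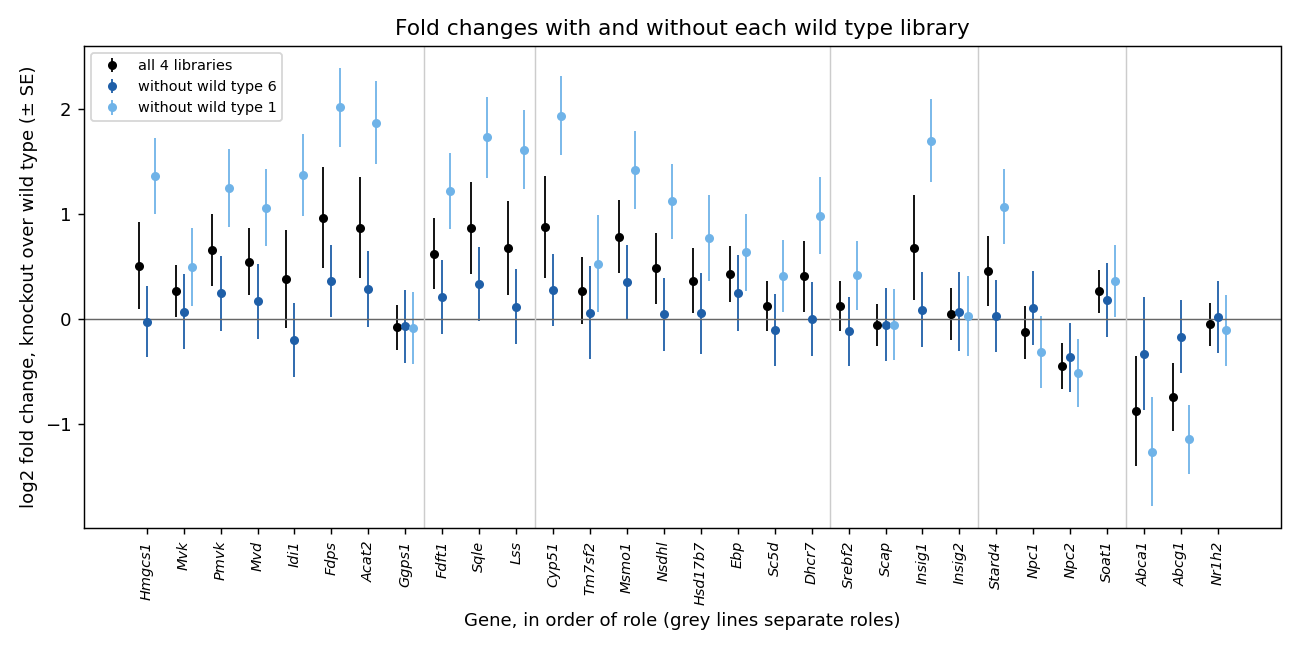
log2 fold change (knockout over wild type, ± SE) of each member in the fit of all 4 libraries and in the fits that leave out wild type replicate 6 or wild type replicate 1. The enzymes move toward 0 without wild type replicate 6 (14 of 19 above 0, median 0.12) and upward without wild type replicate 1 (18 of 19 above 0, median 1.22).

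The genes that control SREBP did not all follow the enzymes. Insig1 (Entrez gene 231070, chr5:28071412-28078662), which retains the SCAP and SREBP pair and is itself a known SREBP target, was at 96.3 and 31.9 CPM in the wild type pair and at 76.4 and 129 CPM in the knockout pair. Its 3.02-fold gap between the wild type libraries was close to those of Cyp51 and Fdps, and the groups overlapped (log2 fold change 0.68, SE 0.50, edgeR adjusted p 0.547). Its relative Insig2, which has the same retention function, was at 17.6 and 18.3 CPM against 20.9 and 16.0 CPM. The ratio of its wild type libraries was 0.964, and its log2 fold change between genotypes was 0.04 (SE 0.25). Srebf2 (Entrez gene 20788, chr15:82147269-82205379), which encodes SREBP2, was at 422 and 294 CPM against 382 and 395 CPM, so wild type replicate 6 was again lowest but by a smaller fold of 1.43. Scap stood between 79.0 and 86.1 CPM in the 4 libraries and was not lowest in wild type replicate 6.

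Among the transport and storage genes, Stard4 had the low value in wild type replicate 6 that most enzymes had. Stard4, a cytosolic sterol carrier, was at 113 and 55.3 CPM in the wild type pair and at 122 and 108 CPM in the knockout pair (log2 fold change 0.45, SE 0.33). Wild type replicate 6 lay 2.04-fold below wild type replicate 1. Npc2 (Entrez gene 67963, chr12:84754559-84773112), which hands cholesterol to NPC1 in the lysosome, was at 478 and 534 CPM against 327 and 414 CPM. Both knockout libraries were below both wild type libraries, with a log2 fold change of -0.45 (SE 0.22, edgeR p 0.0762, adjusted p 0.429) and of -0.37 (SE 0.33) without wild type replicate 6. Npc1, the lysosomal membrane exporter, was at 65.7 and 88.6 CPM against 80.6 and 60.5 CPM, with overlap, and it shares 8982 bases with the gene Rmc1 in the annotation. Soat1, which esterifies cholesterol for storage, was at 50.2 and 44.6 CPM against 55.3 and 58.3 CPM. Its groups did not overlap, and its log2 fold change was 0.26 (SE 0.21).

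The export genes ran the other way. Abcg1 (Entrez gene 11307, chr17:31057694-31117984), which moves cholesterol to lipoprotein particles, was at 51.1 and 102 CPM in the wild type pair and at 46.6 and 44.5 CPM in the knockout pair. Wild type replicate 6 was the highest library, and wild type replicate 1 stood close to the knockout pair but above both. The log2 fold change was -0.75 (SE 0.32, edgeR p 0.0513, adjusted p 0.417), and it was -0.17 (SE 0.35) without wild type replicate 6. Abca1 (Entrez gene 11303, chr4:53030789-53159988), the pump that loads lipid-poor apolipoproteins, was at 7.32 and 14.1 CPM against 8.47 and 3.20 CPM. The groups overlapped (log2 fold change -0.88, SE 0.52, adjusted p 0.479 in edgeR), and knockout replicate 12 was lowest. In the fits of 3 libraries the log2 fold change of Abca1 was -1.27 (wild type replicate 1 left out), -0.33 (wild type replicate 6), -1.75 (knockout replicate 9) or -0.34 (knockout replicate 12). Abca1 has an effective length of 10417 bases, in the range where the median of all genes was -0.50, and with the length trend removed its log2 fold change was -0.45 (SE 0.39) and that of Abcg1 was -0.44 (SE 0.31). Both pumps are also abundant in macrophages, whose 6 markers summed to 7.58 and 16.3 CPM in the wild type pair and 8.18 and 11.1 CPM in the knockout pair. Cd68 made up most of that sum, at 5.90 and 12.3 CPM against 6.61 and 8.26 CPM, and was highest in wild type replicate 6. Csf1r and Fcgr1 were also highest there, at 1.82 and 0.86 CPM, while Lyz2, Adgre1 and Cd14 were not. Fcgr1, Lyz2, Adgre1 and Cd14 were each under 1 CPM in every library. The part of those cells in the pump levels was not tested, and fewer cells of a type and less RNA per cell cannot be told apart in bulk libraries. Nr1h2, which encodes the receptor LXR beta, stood between 108 and 120 CPM in all 4 libraries.

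The 2 wild type libraries were therefore set side by side, as a comparison of 1 library with 1 library and no test. Wild type replicate 6 lay more than 2-fold below wild type replicate 1 for 9 of 19 enzymes and 11 of 30 members, against 3.18% of the 12725 tested genes with counts in both. The 2 members outside the enzymes were Insig1 and Stard4. Across the 19 enzymes the median gap was 1.997-fold, from 0.98-fold in Ggps1 to 3.13-fold in Cyp51. Abcg1 (0.503) and Abca1 (0.519) had the lowest ratios of wild type replicate 1 to wild type replicate 6, and a ratio below 0.5 was found for 7.24% of all genes and 0 members.

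**Figure D3:**
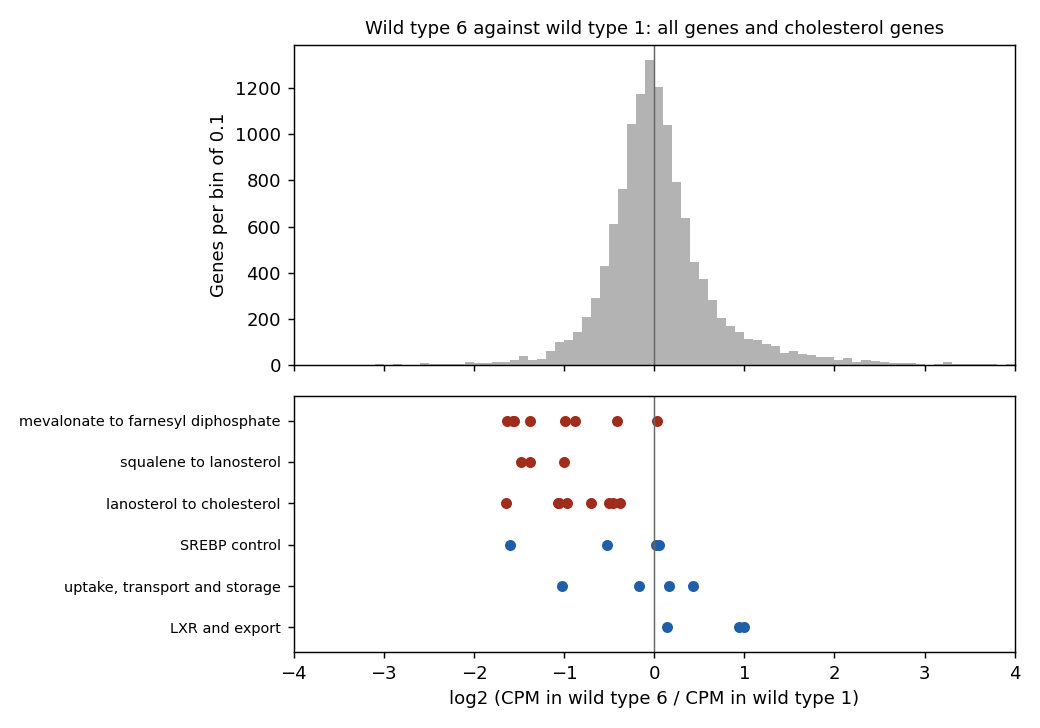
Top, histogram of the log2 ratio of wild type replicate 6 to wild type replicate 1 over 12725 genes (bins of 0.1, with 31 genes beyond the axis). Bottom, the same ratio for the 30 members by role, with synthesis enzymes in red and other members in blue. The enzymes spread from about 0 down to -1.65, and Abca1 and Abcg1 lie at 0.95 and 0.99.

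When the knockout pair was set against wild type replicate 6 alone, 6 members were called higher by edgeR and 0 lower, against 0.841% of 13437 genes called higher and 0.603% lower. In this fit the lone wild type library is assumed to vary like the knockout pair. At an unadjusted p there were 15 members higher and 2 lower, against 9.14% and 6.81%. The 6 were Fdps (log2 fold change 2.01, SE 0.38, adjusted p 0.00812), Cyp51 (1.93, adjusted p 0.0108), Acat2 (1.87), Sqle (1.73), Insig1 (1.70) and Lss (1.61). Over the other 11 alternatives the adjusted p of these 6 lay between 0.265 and 0.9998. When the knockout pair was set against wild type replicate 1 alone, 0 members were called, against 0.236% of 13124 genes called higher and 0.107% lower, and 0 members had an unadjusted edgeR p under 0.05, against 2.68% and 2.09%. Their log2 fold changes then lay between -0.37 (Npc2) and 0.36 (Fdps). The knockout libraries also differed from each other, with knockout replicate 12 above knockout replicate 9 for 17 of 19 enzymes, by up to 1.56-fold (Acat2), and knockout replicate 12 was the highest library for 19 of 30 members against 35.4% of all genes.

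Of 54 further genes of the pathway, 53 were in the table and 50 were tested. edgeR called 0 of them, and 0 were higher and 1 was lower at an unadjusted p under 0.05, against 6.23% and 5.73% of all genes. The median log2 fold change was 0.06, with 27 of 50 above 0, and 21 of 50 were lowest in wild type replicate 6, so this wider list stood nearer to all genes than the enzymes did. The 1 lower gene was Rnf145, a ubiquitin ligase of the endoplasmic reticulum with a known role in sterol-dependent turnover of the pathway. Rnf145 was at 156 and 137 CPM in the wild type pair and at 89.9 and 94.5 CPM in the knockout pair. Both knockout libraries were below both wild type libraries (log2 fold change -0.67, SE 0.21, edgeR p 0.0131, adjusted p 0.391), and here wild type replicate 6 did not stand apart. Tmem97, an SREBP target that binds NPC1, was singled out after its values were seen. It was at 46.9 and 13.5 CPM against 48.5 and 80.3 CPM, the pattern of the enzymes.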

How the data were processed

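RNA-seq was measured in 4 libraries. Per the submitters' processing notes, the authors worked with the builds GRCm38.p6 and mm10 and ran Bowtie2 and RSEM, whose versions and settings were not given in the sources used here. In the deposited table the authors give an expected count per gene and library, which RSEM estimates and which need not be whole, and a second value taken as FPKM, made by the authors (the file headers name no unit). The authors' columns of group averages were not used.

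Expected counts were rounded, filtered with filterByExpr (minimum count 10) and scaled by TMM, and the genotypes were compared by the two-sided quasi-likelihood F test of edgeR 4.0.16 (R 4.3.3), with Benjamini-Hochberg adjustment over 12816 genes and a threshold of 0.05. The SE was taken from the F statistic. Replicates differed by more than sampling noise (chi-square per degree of freedom 46.0 for the wild type pair and 52.9 for the knockout pair), so 4 samples were kept. Between genotypes it ran from 30.5 (wild type replicate 1 and knockout replicate 9) to 164 (wild type replicate 6 and knockout replicate 12). The alternatives were other scalings and filters, DESeq2 1.42.0, limma-voom (limma 3.58.1), a length trend removed from each library by lowess (span 0.3) and leaving out each library. On simulated data for this comparison (12816 genes) the test recovered 33% of 100 genes changed 2-fold and 92% of 100 changed 4-fold, and 17 of 142 calls were genes simulated without a change.

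The members and lists were chosen with earlier results of these data known. All 30 members are described. Values in every library are given for up to 4 of each role with the largest fold change and for Hmgcs1, Sqle, Insig1, Insig2, Srebf2, Abca1 and Abcg1, and of the other pathway genes for those at an unadjusted p under 0.05. Ggps1, Idi1, the genes named by ranges and the LXR element were added after values were seen. Of the marker lists not given with the results, NK cell markers summed to between 2.03 and 4.06 CPM.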

Additional observations from a re-analysis of the deposited data

How the results depend on the processing

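No paired analysis was possible because the groups share no replicate number. Of the 30 members, 20 kept the sign of their log2 fold change in all 12 alternatives. The other 10 were near 0 in at least 1 fit. Insig2 was -0.032 with library size alone in place of TMM, and with the length trend removed Insig2 was -0.013, Scap 0.10 and Npc1 0.10. With a library left out the log2 fold change ranged from -0.026 to 1.36 for Hmgcs1, -0.20 to 1.37 for Idi1, -0.11 to 0.41 for Sc5d, -0.0026 to 0.98 for Dhcr7, -0.12 to 0.41 for Srebf2, -0.36 to 0.10 for Npc1, -0.11 to 0.020 for Nr1h2, -0.17 to 0.22 for Insig2 and -0.21 to 0.028 for Ggps1. The lowest value of the first 5 was that without wild type replicate 6. The median of the members ran from 0.063 to 0.87 with a library left out (without wild type replicates 6 and 1) and from 0.32 to 0.44 in the other 8 alternatives. The median of all genes stood at -0.08 with library size alone.

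Members called over all genes ranged from 0 to 6 higher with a library left out, and 0 were called in the other 8 alternatives. Members at an unadjusted p under 0.05 ranged from 0 to 15 higher and 0 to 2 lower with a library left out. They were 0 higher and 2 lower (Npc2 and Abcg1) with library size alone, against 4.63% and 7.05% of all genes, 1 and 1 without a filter (Msmo1 and Abcg1), against 6.24% and 5.43%, and 1 (Soat1) and 0 with the length trend removed, against 5.87% and 5.19%. They were 4 and 1 with DESeq2, against 6.59% and 6.48%, and 2 and 0 with limma-voom, against 6.65% and 6.37%. Genes called over the whole table ranged from 0 to 113 higher and 0 to 81 lower with a library left out, and were 48 and 33 without a filter and 89 and 97 with DESeq2. The cause was not tested. With 2 libraries a group, differences of 2-fold were recovered in 33% of simulated cases. That share rests on 100 genes changed 2-fold and 100 changed 4-fold, as the adjusted p depends on how many genes change. No length trend was simulated, and the share among these members may be lower. Differences of 2-fold or less in these genes could thus have gone undetected. The lowest count of a member in a library was 62 (Abca1), so counting error was small beside the spread between libraries.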
